A study of Rattus norvegicus with 29 samples.

Results

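Binge methamphetamine (METH) was compared with saline (Sal) in Ammon's horn (CA), the part of the hippocampus built around the pyramidal cell layers. The comparison used 8 of the 29 ATAC-seq libraries of the series, namely all libraries whose titles name CA, with 4 from saline rats and 4 from METH rats. The rats were adult male Sprague-Dawley rats, and no genetic change is described for either group. Whether each library came from a separate rat is not stated, so p-values measure the spread between these samples, which may be partly technical. The METH rats received 4 intraperitoneal injections of METH at 10 mg/kg with 2 h between them, and the saline rats received 4 injections of saline at 1 mL/kg on the same schedule. Tissue was taken the day after the last injection, and only 1 hemisphere of each brain was used for ATAC-seq. The CA was scooped out of the posterior hemisphere and was not sorted by cell type, so a difference in the share of a cell type and a difference in its chromatin cannot be told apart. CA markers were not checked, because gene annotation of the build of the files was not used here.

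In ATAC-seq, a transposase inserts adapters into DNA that is not wrapped tightly in nucleosomes, and regions with many insertions are called open chromatin regions (OCRs). In neurons such regions are mostly promoters and enhancers, and enhancers near active genes often lie in groups. METH releases dopamine and other monoamines, and a binge raises body temperature and is toxic to monoamine terminals. Pyramidal neurons of the CA use glutamate and are surrounded by GABA interneurons and glia.

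None of the 98237 OCRs passed the threshold of the study for a differentially accessible region (DAR), a fold change above 1.5 with an FDR under 0.001 in edgeR's quasi-likelihood test, which is 0.0% of the OCRs tested. The lowest Benjamini-Hochberg adjusted p of the test was 1.0. The study removed unwanted variation with RUVr before its test, and the fit above did not. With its own procedure the study reported DARs in CA in both directions, most of them more accessible after METH. With 10 RUVr factors, rewritten here and used as covariates, 10 DARs were called. On counts corrected by these factors 1385 were called, but with edgeR's likelihood ratio test in place of the quasi-likelihood test. These 2 results thus differ in the test too. On uncorrected counts the likelihood ratio test called 0. The factors came from the residuals of the fit by group, so correcting the counts took out spread within groups before the test. The test did not allow for this removal, so the 1385 DARs cannot be read as changes that the correction uncovered. In the likelihood ratio test, the median standard error of an OCR was 0.17 on corrected and 0.39 on uncorrected counts. At an unadjusted p under 0.05, the quasi-likelihood test without RUVr counted 806 OCRs, or 0.82%. Evenly spread p-values would give more, so an absence of DARs in this test does not show an absence of change. Of the 806 OCRs, 347 (0.353% of all OCRs) were more accessible and 459 (0.467%) less accessible after METH. This split depended on the model. The more accessible OCRs made up 43.05% of these OCRs, 37.18% with TMM normalization, 23.82% with loess offsets and 18.95% with DESeq2. They made up 69.68% with name tag as a covariate, 79.57% with the replicate number as a block, and 67.57% and 70.66% with 10 and 5 RUVr factors. DESeq2 also called no DAR and counted 1499 OCRs at that level. Across OCRs, the log2 fold change had a median of 0.02, and the standard error of a single OCR had a median of 0.38. METH libraries held a smaller share of their counts in OCRs that lie among many other OCRs and a larger share in OCRs with few neighbours, but this also missed the threshold.

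The 8 libraries held 12.2 to 19.4 M counts in OCRs (M, mega). Saline libraries held 15.9 ± 2.97 M and METH libraries 15.9 ± 3.51 M (SD, n = 4), with no difference beyond the spread between replicates (two-sided exact permutation test, p = 0.971). The library names carried in the deposited peak lists spell a common tag in 2 ways. Saline and METH replicates 1 and 2 carry the first spelling (name tag 1) and replicates 3 and 4 the second (name tag 2), and no source states what the spelling records. The libraries differed more by name tag than by treatment. CPM is the count of an OCR scaled to the normalized total of its library. Of the variance of log2 CPM among the 8 libraries, name tag took 46.7% and treatment 7.71%.

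On the first principal component, which held 59.6% of the variance, saline replicates 1 and 2 lay at -141 and -263, and METH replicate 2 lay at -95.3. METH replicate 1 was near the middle at 3.19, and the 4 libraries of name tag 2 lay between 60.5 and 159. The second component held 18.1% and placed METH replicate 1 (147) and saline replicate 4 (105) at one end and saline replicate 3 (-102) at the other. The correlation of log2 CPM over OCRs was 0.836 to 0.946 between saline and METH libraries of 1 name tag, and 0.688 to 0.902 between libraries of the same treatment with different tags. For 7 of the 8 libraries, the closest library was one of the other treatment. The exception was saline replicate 2, whose closest library was saline replicate 1 (r = 0.942). Saline replicate 2 also had the lowest mean correlation with the other libraries, 0.802, and its correlation with saline replicate 4 was 0.688. Results are therefore given with and without this library.

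**Figure D1:**
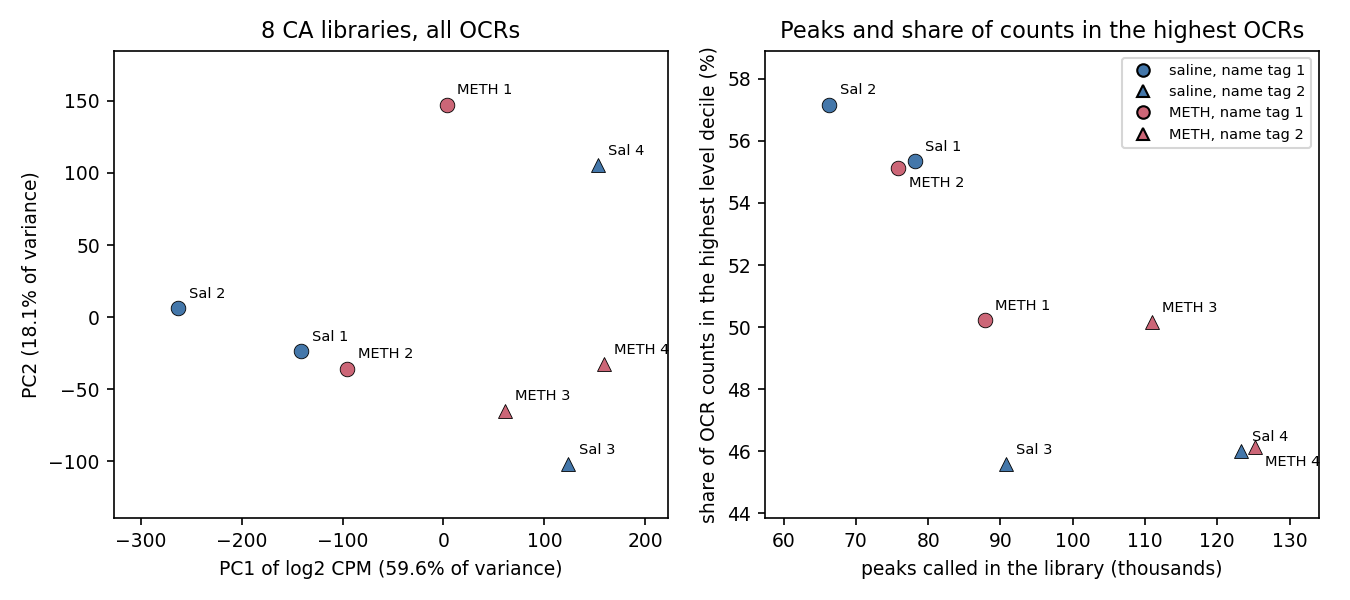
The left panel plots each of the 8 CA libraries on the first (x) and second (y) principal components of log2 CPM, in arbitrary units, and the right panel plots the share of its OCR counts in the highest decile of OCRs (y, %) against the number of its peaks (x, kilo-peaks). Blue marks saline, red marks METH, circles name tag 1 and triangles name tag 2. Saline replicate 2 lies farthest to the left on the first component, at -263, and has the fewest peaks and the highest share.

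Individual OCRs were described by the OCRs with the lowest p among those whose groups did not overlap. All 4 METH libraries lay above all 4 saline libraries in 474 OCRs (0.483% of the OCRs tested) and below them in 357 OCRs (0.363%). The more accessible OCR with the lowest p was chr7:77854288-77855178 in the rat build rn6, 891 bp wide. In saline replicates 1 to 4 it held 0.346, 0.328, 0.7991 and 0.643 CPM, and in METH replicates 1 to 4 it held 1.37, 1.27, 6.75 and 3.86 CPM. The METH libraries of name tag 2 were well above those of name tag 1, and no saline library reached 1 CPM. Its log2 fold change was 2.63 ± 0.72 (SE), with an unadjusted p of 0.00103 in edgeR's quasi-likelihood test and an adjusted p of 1.0. The test without saline replicate 2 gave 2.47. A peak was called there in 0 saline and 2 METH libraries. This OCR lies in the lowest decile of mean level, so the values rest on few counts.

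The second OCR, chr10:95606533-95607045, held 2.84, 1.38, 1.02 and 2.204 CPM in saline replicates 1 to 4. In the METH replicates it held 3.82, 5.99, 4.12 and 3.53 CPM, with saline replicate 1 closest to the METH group. The log2 fold change was 1.22 ± 0.35 (SE), and it was nearly equal in both name tags, at 1.21 in name tag 1 and 1.22 in name tag 2. A peak was called there in 0 saline and 4 METH libraries.

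The third, chr1:36155371-36156139, held 2.42, 0.788, 3.12 and 4.64 CPM in the saline replicates. In the METH replicates it held 12.0, 4.64, 5.36 and 5.96 CPM, and METH replicate 2 and saline replicate 4 were nearly equal. The log2 fold change was 2.38 in name tag 1 and 0.54 in name tag 2. The fourth, chr1:145956796-145957672, varied little among saline libraries, with 3.53, 3.22, 3.12 and 3.08 CPM. In the METH replicates it held 4.40, 7.17, 4.84 and 4.72 CPM, with replicate 2 above the other 3. Its log2 fold change of 0.70 ± 0.22 (SE) stayed between 0.52 and 0.78 when any 1 of the 8 libraries was left out.

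The fifth and sixth more accessible OCRs were a narrow and a wider OCR. At chr1:177024720-177025018, 299 bp wide and with 23 other OCRs within 50 kb, saline libraries held 0.657 to 1.97 CPM and METH libraries 2.19 to 4.69 CPM. At chr14:92676501-92677373, saline libraries held 1.44 to 7.63 CPM and METH libraries 9.03 to 20.3 CPM. The log2 fold changes were 1.32 and 1.56.

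The less accessible OCR with the lowest p was chr1:150844946-150845499, which had no other OCR within 50 kb. It held 0.139, 0.657, 0.218 and 0.276 CPM in the saline replicates. The METH replicates held 0.0, 0.0, 0.0515 and 0.0477 CPM, so all 8 values were below 1 CPM and no library had a peak there. The second, chr8:59171529-59172020, held 4.64, 6.43, 2.18 and 1.88 CPM in the saline replicates and 1.58, 1.86, 1.70 and 0.81 CPM in the METH replicates. Saline replicate 4 and METH replicate 2 were nearly equal, and the log2 fold change of -1.35 was -0.96 without saline replicate 2.

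The third, chr1:174598156-174598932, separated the groups more evenly. It held 4.50, 3.61, 3.49 and 3.26 CPM in the saline replicates and 2.16, 2.03, 1.34 and 1.24 CPM in the METH replicates. Its log2 fold change was -1.14 ± 0.32 (SE), with an unadjusted p of 0.00155 in edgeR's test, and it ranged from -1.28 to -1.01 when single libraries were left out. A peak was called there in 3 saline and 0 METH libraries.

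The fourth to sixth less accessible OCRs were chr13:48224092-48224796, chr3:174055673-174056313 and chr11:47196035-47196651. Their log2 fold changes were -0.76, -1.40 and -1.14. METH libraries held 2.58 to 3.86 CPM in the fourth against 4.04 to 5.97 CPM with saline. In the fifth they held 0.721 to 1.29 CPM against 1.31 to 4.94 CPM, where saline replicate 3 was highest. In the sixth they held 0.793 to 2.28 CPM against 2.48 to 4.99 CPM.

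**Figure D2:**
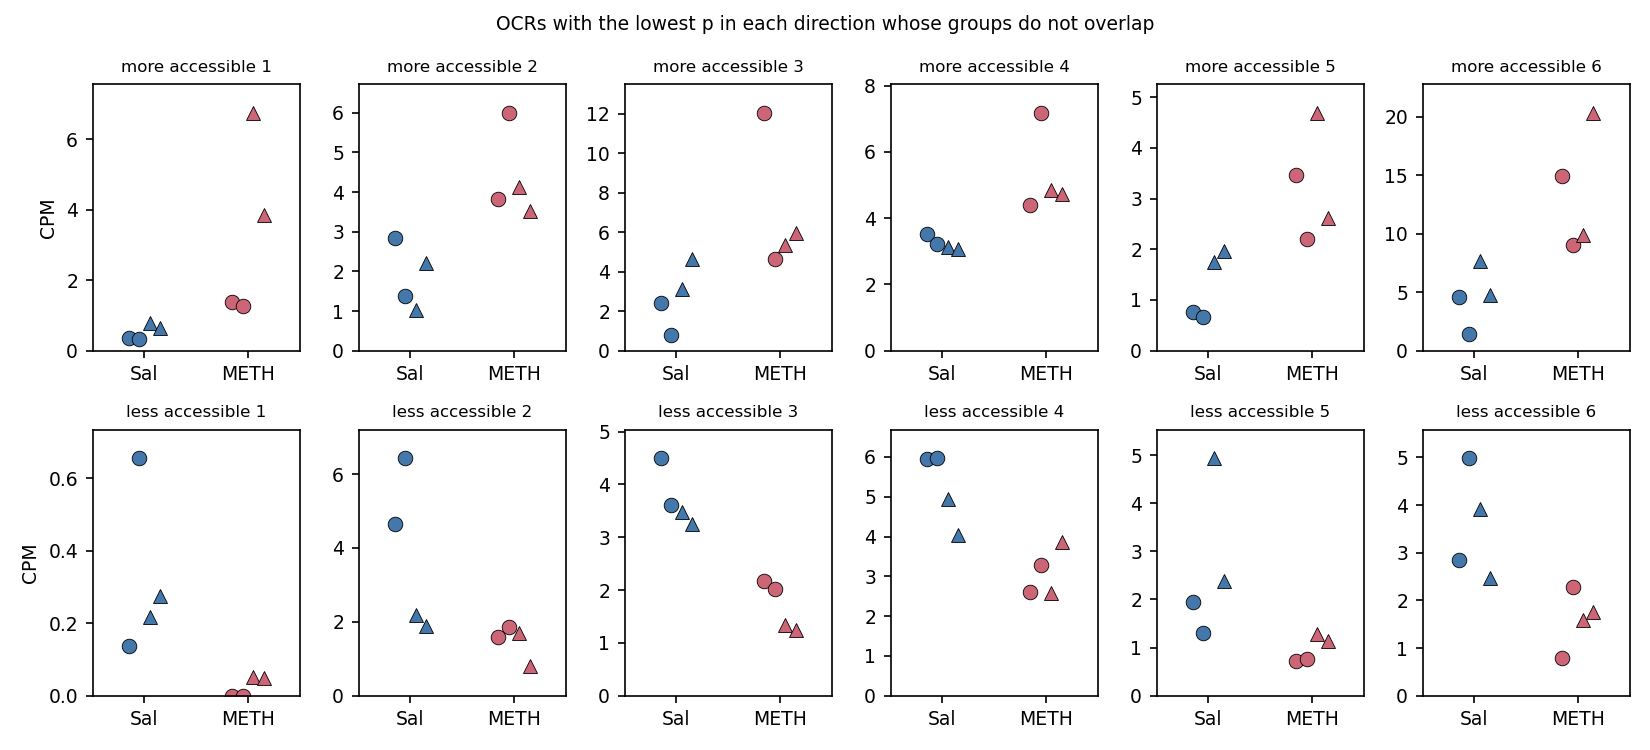
Each panel plots the level of 1 OCR in CPM (y, linear from 0) for the 4 saline (blue) and 4 METH (red) CA libraries, with circles for name tag 1 and triangles for name tag 2. The upper row holds the 6 more accessible and the lower row the 6 less accessible OCRs with the lowest p among OCRs whose groups do not overlap, so the separation is how they were chosen.

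Without saline replicate 2, all METH libraries lay above the other 3 saline libraries in 811 OCRs (0.826%) and below them in 720 (0.733%). The 3 more accessible OCRs with the lowest p in that comparison were the OCR at chr7:77854288-77855178 again, chr4:160602849-160603222 and chr3:168602670-168603046. The chromosome 4 OCR held 2.42, 2.50, 1.53 and 1.97 CPM in the saline replicates and 3.17, 3.71, 4.07 and 3.15 CPM in the METH replicates. Saline replicate 2 was the highest of the saline libraries there and still lay below all METH libraries. The chromosome 3 OCR held at most 0.618 CPM in 3 of the METH libraries and 3.10 CPM in METH replicate 1, and saline replicate 2, at 0.46 CPM, overlapped the METH group. The 3 less accessible OCRs were chr3:174055673-174056313 and chr1:174598156-174598932 again, and chr11:64369806-64370357, which held 3.55 to 6.11 CPM with saline and 1.94 to 3.10 CPM with METH. In all these OCRs the adjusted p without saline replicate 2 was 1.0.

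The position of OCRs relative to each other went with their direction. OCRs were divided by the number of other OCRs whose midpoints lie within 50 kb. The 3977 OCRs with no neighbour had a median log2 fold change of 0.12, and the 12854 OCRs with 1 to 2 neighbours had 0.09. The median was 0.05 in the 23757 OCRs with 3 to 5 neighbours, 0.02 in the 28251 with 6 to 9, and -0.03 in the 29398 with 10 or more. Of the OCRs with no neighbour, 64.2% had a positive value, against 45.7% of those with 10 or more and 53.4% of all OCRs. The medians without saline replicate 2 were 0.05, 0.05, 0.03, 0.00 and -0.03, so the order of the ends was kept and the span was smaller. Within name tag 1 the median went from 0.40 with no neighbour to -0.01 with 10 or more, and within name tag 2 from 0.05 to 0.03.

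The same was seen in the share of the counts of each library. OCRs with 10 or more neighbours held 33.19%, 33.70%, 32.47% and 31.96% of the counts in saline replicates 1 to 4. In METH replicates 1 to 4 they held 31.78%, 32.16%, 32.15% and 31.73%. Saline replicates 1, 2 and 3 lay above all METH libraries, and saline replicate 4 lay within the METH range. The mean was 32.8% ± 0.77 with saline and 32.0% ± 0.23 with METH (SD, n = 4), a difference of -0.87 percentage points (two-sided exact permutation test, p = 0.0857, adjusted over 5 classes 0.143). The smallest p that 4 against 4 libraries can give is 0.0286.

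OCRs with 3 to 5 neighbours held 23.24%, 23.09%, 23.27% and 23.50% in the saline replicates and 23.82%, 23.75%, 23.47% and 23.61% in the METH replicates. The groups overlapped through METH replicate 3, which lay just below saline replicate 4. The difference was 0.39 percentage points (exact permutation p = 0.0571, adjusted 0.143). OCRs with 1 to 2 neighbours differed by 0.39 percentage points (exact permutation p = 0.0857, adjusted 0.143), and those with none by 0.15 (p = 0.286). OCRs with 6 to 9 neighbours held 29.7% with saline and 29.7% with METH.

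The difference had the same direction in both name tags for 1 to 2, 3 to 5 and 10 or more neighbours, but its size differed. For 10 or more neighbours it was -1.47 percentage points in name tag 1 and -0.28 in name tag 2. It was -0.58 with saline replicate 2 left out (exact permutation p = 0.114). Saline replicate 4 was the only saline library within the METH range, so leaving it out parts the groups. The difference was then -1.165 (exact permutation p = 0.0286, the smallest possible). Leaving out any other single library gave an exact permutation p from 0.0857 to 0.2. With neighbours counted within 20 kb, OCRs with 3 to 5 neighbours held 36.1% ± 0.10 with saline and 35.8% ± 0.15 with METH. All METH libraries lay below all saline libraries there (exact permutation p = 0.0286, the smallest possible, adjusted 0.0952). Without saline replicate 2 the exact permutation p was 0.0571. The sign was opposite to that of 3 to 5 neighbours within 50 kb (0.39), a class that holds other OCRs. Within 100 kb, OCRs with 6 to 9 neighbours differed by 0.278 percentage points (exact permutation p = 0.0286, adjusted 0.143). OCRs that had more neighbours also had higher levels, with a median log2 CPM of 1.604 with no neighbour and 2.32 with 10 or more. Within the middle tercile of OCRs by level, the median log2 fold change still went from 0.15 with no neighbour to -0.01 with 10 or more, and from 0.04 to -0.05 without saline replicate 2.

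**Figure D3:**
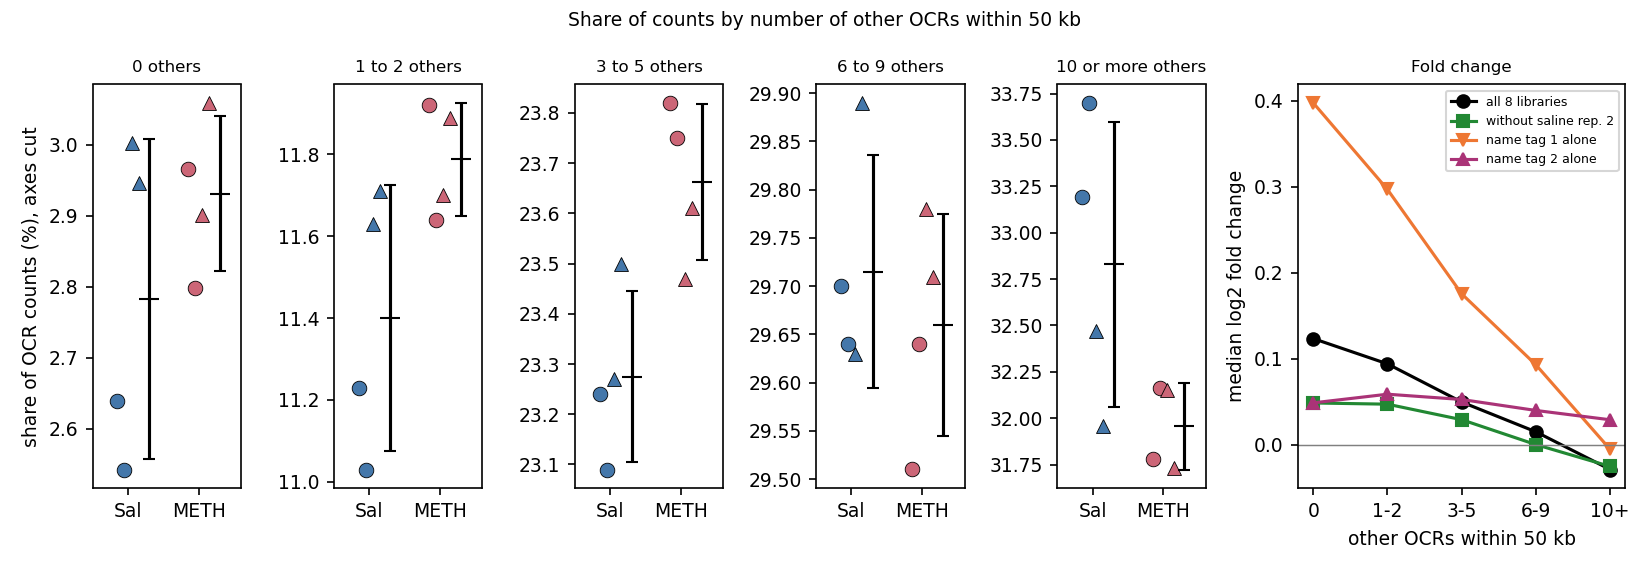
The 5 left panels plot the share of the OCR counts of each CA library (y, %, each axis cut to its own range) in OCRs with the given number of other OCRs within 50 kb, for saline (blue) and METH (red), with circles for name tag 1, triangles for name tag 2 and bars for mean and SD (n = 4). The right panel plots the median log2 fold change of each class, which goes from 0.12 to -0.03 over all 8 libraries and from 0.05 to -0.03 without saline replicate 2, with lines for each name tag alone.

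Sums over windows of 1 Mb gave a similar picture. Of 2590 windows with at least 3 OCRs, none passed an FDR of 0.05 in edgeR's quasi-likelihood test (0.0%), and 3 windows had an unadjusted p under 0.05, all more accessible after METH. With TMM normalization 1 of 3 such windows was more accessible, and there were 40 such windows without saline replicate 3, 59 without saline replicate 4, 9 without METH replicate 2 and 1 without saline replicate 2. The 382 windows with 3 to 9 OCRs had a median log2 fold change of 0.11, and the 550 windows with 60 or more had -0.01. Without saline replicate 2 these medians were 0.04 and -0.01. The window with the lowest p was chr1:252000001-253000000, with 28 OCRs, of which 20 had a positive log2 fold change. It held 206, 198, 201 and 226 CPM in the saline replicates and 266, 258, 223 and 235 CPM in the METH replicates. METH replicate 3 lay below saline replicate 4, and the log2 fold change was 0.24 ± 0.09 (SE; edgeR adjusted p = 0.99). The less accessible window with the lowest p, chr11:71000001-72000000, had a log2 fold change of -0.08.

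The mean level of an OCR went with its direction in a way that depended on single libraries. OCRs were ranked by mean log2 CPM over the 8 libraries and divided into 10 deciles. With all libraries, the median log2 fold change was 0.04 in the lowest decile, 0.07 in the second, 0.05 in the fifth and -0.04 in the highest. Leaving out saline replicate 2, the order was inverted, with -0.06 in the lowest, -0.02 in the fifth and 0.06 in the highest decile. The order was also inverted without saline replicate 1 (-0.08 in the lowest and 0.04 in the highest decile) and without METH replicate 4 (-0.07 and 0.02). Of the OCRs of the highest decile, 36.1% had a positive value with all libraries and 74.1% without saline replicate 2.

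The highest decile held 55.3%, 57.2%, 45.6% and 46.0% of the counts in saline replicates 1 to 4. It held 50.2%, 55.1%, 50.2% and 46.1% in METH replicates 1 to 4. The saline libraries thus fell into a high pair of name tag 1 and a low pair of name tag 2, and all 4 METH libraries lay between these pairs. The mean was 51.0% ± 6.09 with saline and 50.4% ± 3.67 with METH (SD, n = 4; exact permutation p = 0.857, adjusted over 10 deciles 0.914). Within name tag 1 METH libraries held 3.59 percentage points less than saline libraries, and within name tag 2 they held 2.35 more.

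The lowest decile held 0.746%, 0.725%, 1.504% and 1.58% in the saline replicates and 1.18%, 0.846%, 1.17% and 1.49% in the METH replicates. METH was higher than saline in name tag 1 and lower in name tag 2, and the means differed by 0.03 percentage points (exact permutation p = 0.8286). The fifth decile held 4.02% ± 0.92 with saline and 4.14% ± 0.52 with METH (exact permutation p = 0.8286). Where the deciles were set from the 21 libraries of the other regions, the lowest decile had a median log2 fold change of 0.20 with all libraries and -0.05 without saline replicate 2.

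**Figure D4:**
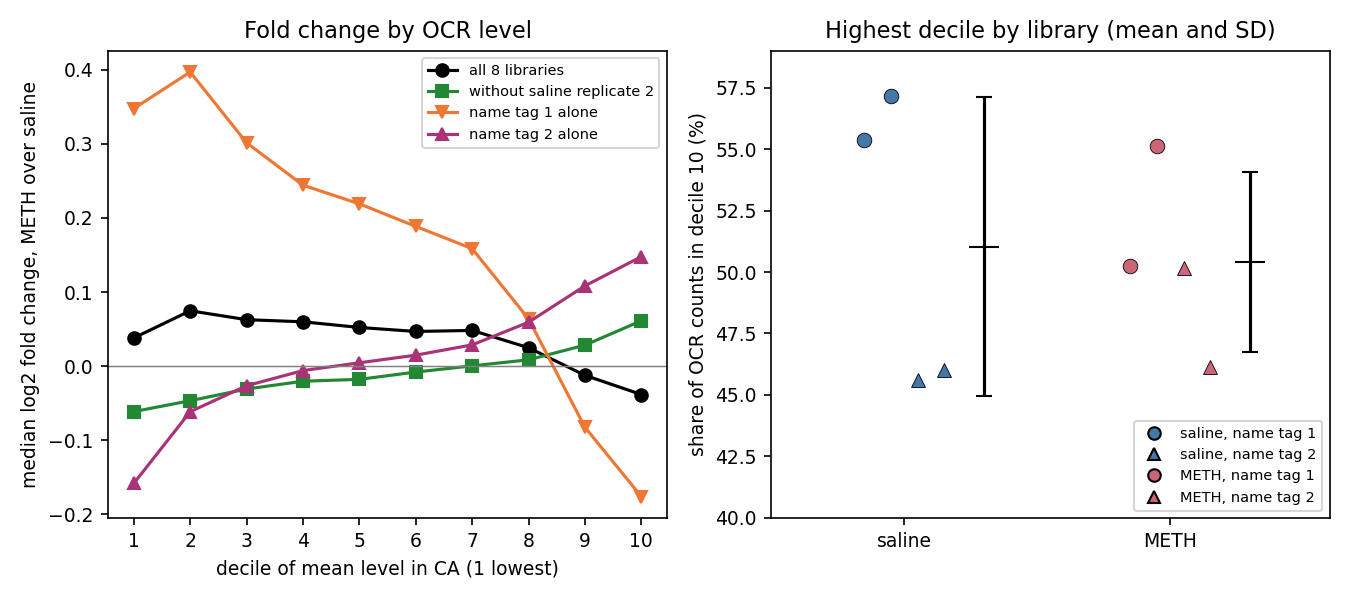
The left panel plots the median log2 fold change of METH over saline (y) by decile of mean OCR level in CA (x, 1 lowest), for all 8 libraries, without saline replicate 2, and within each name tag. The right panel plots the share of counts in the highest decile (y, %, axis not from 0) in each saline (blue) and METH (red) library, with bars for mean and SD (n = 4). The line of name tag 1 falls to -0.18 in the highest decile and that of name tag 2 climbs to 0.15.

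The opposite order in the name tags extended over all OCRs. The log2 fold changes of name tag 1 (2 METH against 2 saline libraries) and name tag 2 had a Spearman correlation of -0.343 over 98237 OCRs, which share libraries and normalization and are not independent. In 62.6% of OCRs the directions were opposite, in 24.5% both were positive and in 12.9% both were negative. The interaction of treatment and name tag passed an FDR of 0.05 in no OCR in edgeR's test (0.0%) and an unadjusted p of 0.05 in 10215 OCRs (10.4%). Within name tag 1, 13103 of the 98237 OCRs had an unadjusted p under 0.05 and 1 had an adjusted p under 0.05. Within name tag 2, 1237 of the 98237 OCRs had an unadjusted p under 0.05 and none an adjusted p under 0.05.

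Width was described in 5 classes. The OCRs were 150 to 3796 bp wide, with a median of 662 bp. The median log2 fold change was -0.02 in the 9736 OCRs under 400 bp, 0.04 from 400 to under 800 bp, 0.02 from 800 to under 1200 bp, 0.00 from 1200 to under 2000 bp and 0.02 in the 424 OCRs of 2000 bp or more. Without saline replicate 2, the medians were -0.02, -0.01, 0.03, 0.04 and 0.05, so wider OCRs then had the higher values. Wide OCRs also had high levels, with a median log2 CPM of 1.51 under 400 bp and 5.17 at 2000 bp or more.

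Within the highest tercile of level, the median went from -0.09 under 400 bp to 0.02 at 2000 bp or more with all libraries. Without saline replicate 2 it went from 0.02 to 0.05 there. In the lowest tercile it went from -0.00 under 400 bp to 0.09 from 800 to under 1200 bp with all libraries, and it was -0.04 in both classes without saline replicate 2. In the middle tercile without that library it went from -0.00 under 400 bp to -0.03 from 1200 to under 2000 bp, so wider OCRs did not have the higher values there.

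The share of counts by width did not differ between treatments beyond the spread between replicates in any class (exact permutation p from 0.514 to 0.914, adjusted 0.914). OCRs of 400 to under 800 bp held 25.2%, 24.4%, 30.2% and 29.7% in the saline replicates and 27.3%, 25.2%, 27.7% and 30.0% in the METH replicates. Here too the saline libraries split by name tag, and METH minus saline was 1.41 percentage points in name tag 1 and -1.10 in name tag 2. OCRs of 1200 to under 2000 bp held 25.5% ± 1.43 with saline and 25.5% ± 1.01 with METH.

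**Figure D5:**
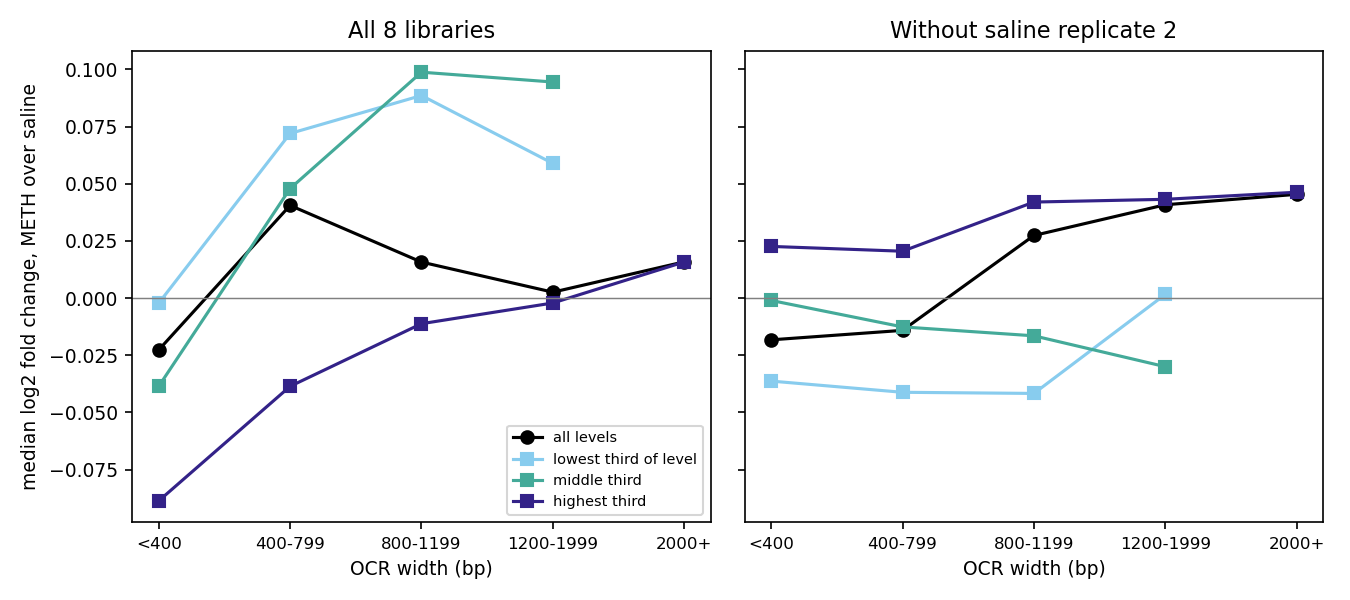
Median log2 fold change of METH over saline (y) by OCR width in bp (x), over all OCRs (black) and within terciles of mean level (colours), for all 8 CA libraries (left) and without saline replicate 2 (right). With all libraries the highest tercile climbs from -0.09 to 0.02, and without saline replicate 2 the line over all OCRs climbs from -0.02 to 0.05.

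Peaks were called by the authors in each library separately. The saline replicates had 78122, 66316, 90722 and 123299 peaks, and the METH replicates had 87870, 75897, 110968 and 125177. Libraries of name tag 2 had more peaks than those of name tag 1 in both groups, and METH and saline overlapped (exact permutation p = 0.629). The median peak was 342 ± 16.7 bp wide with saline and 335 ± 10.97 bp with METH (SD, n = 4; exact permutation p = 0.571). The median fold enrichment of peaks over background was 5.33 ± 0.52 with saline and 5.43 ± 0.42 with METH (exact permutation p = 0.743). It was 5.50 to 5.997 in name tag 1 and 4.85 to 5.16 in name tag 2, with no overlap.

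A peak covered 63.1%, 53.3%, 65.7% and 77.7% of the OCRs in the saline replicates, and 67.2%, 62.2%, 78.2% and 79.9% in the METH replicates. METH exceeded saline by 6.93 percentage points (exact permutation p = 0.314), and by 3.03 without saline replicate 2. The share with a peak depended on width, from 43.5% with saline and 49.1% with METH under 400 bp to 98.6% and 99.1% at 2000 bp or more. Of all OCRs, 35768 had a peak in all 8 libraries and 7497 in none. Of 98237 OCRs, 37 had a peak in all 4 METH and no saline library, and 6 had one in all 4 saline and no METH library. METH libraries had a peak in more of all OCRs, at 71.88% on average against 64.95% with saline. The counts of 37 and 6 were not repeated without saline replicate 2. In the 35768 OCRs with a peak in every library, the median fold enrichment was 7.93 ± 0.94 with saline and 8.78 ± 0.53 with METH (exact permutation p = 0.171). Saline replicate 3, at 6.69, had the lowest value, and the other 7 libraries ran from 7.79 to 9.38.

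The study assigned human genes to OCRs through their human counterparts, which it had selected for variants linked to traits of the nervous system. Entries that name 2 flanking genes were left out here, and 637 OCRs remained. Gene names below are those human symbols, and the OCRs are a selected set. Of these 637 OCRs, 350 had a positive log2 fold change, and 366 without saline replicate 2. Over all OCRs, 53.4% had a positive value, and 51.1% without saline replicate 2. These shares are the background for the counts of positive values in each list below, and no list was tested as a set. The median log2 fold change of the 637 OCRs was 0.03, against 0.02 over all OCRs. None of the 637 had an FDR under 0.05 in edgeR's test and 2 had an unadjusted p under 0.05. The 2 OCRs were an OCR of CACNA1I, a T-type calcium channel, and that of ZNF423, a zinc finger transcription factor, which was named after its values were seen.

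Of the 2 CACNA1I OCRs, chr7:121549294-121549901 held 1.45, 1.71, 2.11 and 5.19 CPM in the saline replicates. It held 6.70, 3.46, 3.86 and 5.38 CPM in the METH replicates. Saline replicate 4 lay among the METH libraries. The log2 fold change was 0.88 ± 0.40 (SE, unadjusted p = 0.0393, edgeR adjusted p = 1.0). It was 0.72 without saline replicate 2 (edgeR unadjusted p = 0.11), 1.68 in name tag 1 and 0.32 in name tag 2. The other CACNA1I OCR had a log2 fold change of -0.22, and -0.50 without saline replicate 2. The ZNF423 OCR, on chromosome 19, held 5.47, 2.89, 3.995 and 4.09 CPM in the saline replicates and 6.34, 5.66, 7.73 and 6.39 CPM in the METH replicates, with no overlap. The log2 fold change was 0.67 ± 0.31 (SE, unadjusted p = 0.039), and 0.53 without saline replicate 2 (edgeR unadjusted p = 0.118). No OCR named below had an unadjusted p under 0.05, and the background of such OCRs was 0.82%. With its own procedure, the study reported the OCRs of NETO1 and TIAM2 and the first of GABRB1 as more open in CA after METH.

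Glutamate receptors and their partners carry excitatory transmission. Of 12 OCRs assigned to them, 8 had a positive log2 fold change, with a median of 0.20, and without saline replicate 2 the count was 6 and the median -0.04. The highest was at GRM8, a metabotropic receptor, with 5.88, 2.76, 6.39 and 19.2 CPM in the saline replicates and 20.5, 6.84, 10.2 and 11.8 CPM in the METH replicates. Saline replicate 4 and METH replicate 1 were the high libraries, and the log2 fold change was 0.52 ± 0.60 (SE). It was 0.23 without saline replicate 2 and ranged from 0.16 to 1.30 when single libraries were left out. The lowest was at GRIK1, a kainate receptor subunit, at -0.71 ± 0.58 (SE), where saline replicates 1 and 2 held 17.1 and 15.8 CPM and all other libraries 2.10 to 9.28 CPM, and it was -0.38 without saline replicate 2. The OCR of NETO1, an auxiliary subunit of kainate receptors, held 5.05, 1.71, 5.81 and 8.68 CPM in the saline replicates and 9.87, 4.22, 4.95 and 7.62 CPM in the METH replicates. The log2 fold change was 0.32, and 0.03 without saline replicate 2.

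For GABA signalling, 3 of 4 OCRs had a positive value, with a median log2 fold change of 0.31, and of 0.10 without saline replicate 2. GABRB1, a subunit of the GABA-A receptor, had 2 OCRs. The first, chr14:38804098-38805271, held 8.79, 4.86, 19.1 and 16.7 CPM in the saline replicates and 20.0, 9.54, 15.6 and 21.2 CPM in the METH replicates. METH exceeded saline in name tag 1, and the log2 fold change was 1.119 there against 0.04 in name tag 2, and 0.16 in the test without saline replicate 2. The second had a log2 fold change of 0.26, and -0.00 without saline replicate 2. The lowest was at ERBB4, a neuregulin receptor of interneurons, where the saline replicates held 67.4, 83.8, 26.2 and 19.4 CPM and the METH replicates 44.2, 53.3, 41.2 and 23.7 CPM. Its log2 fold change was -0.28, and 0.11 without saline replicate 2.

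Ion channels and calcium handling set excitability. Of 17 OCRs assigned to them, 11 had a positive value with a median of 0.12, and 5 without saline replicate 2 with a median of -0.06. The lowest was at CACNA1E, an R-type calcium channel, at -0.34 ± 0.49 (SE), and at -0.55 without saline replicate 2. Of 19 OCRs of second messenger enzymes and their regulators, 13 had a positive value (median 0.06), and 13 without saline replicate 2 (median 0.05). They ranged from -0.60 at ADCY5, an adenylyl cyclase, to 0.50 at ARPP21, a phosphoprotein regulated by cAMP, which was 0.24 without saline replicate 2.

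Genes of adhesion and axon guidance had 30 OCRs, 17 of them with a positive value (median 0.04, and 0.08 without saline replicate 2). They ranged from -0.37 at CDH22, a cadherin, which was nearly equal in both name tags (-0.41 and -0.37), to 0.62 at DCC, the netrin receptor, where no library exceeded 0.928 CPM. Transcription factors had 30 OCRs, 16 with a positive value (median 0.03, and 0.04 without saline replicate 2). The highest was at MEF2C, an activity-dependent factor, with 1.18, 1.51, 5.30 and 4.73 CPM in the saline replicates and 4.47, 2.62, 6.03 and 5.86 CPM in the METH replicates. In each name tag the METH libraries lay above the saline libraries, and the log2 fold change was 0.58 ± 0.43 (SE), and 0.35 without saline replicate 2. The lowest was at FOXO3, at -0.48, and was similar in both name tags (-0.46 and -0.50).

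Neurotrophin signalling was represented by 4 OCRs, 3 of them with a positive value, and 1 without saline replicate 2. The OCR of BDNF, which is induced by neuronal activity, held 2.35, 1.51, 7.12 and 7.44 CPM in the saline replicates and 2.95, 4.30, 7.26 and 7.96 CPM in the METH replicates. The difference between name tags exceeded that between treatments, and the log2 fold change was 0.29 ± 0.52 (SE). The OCR of SORCS3, a sorting receptor, had -0.19, and -0.12 without saline replicate 2. The OCR of TIAM2, an exchange factor for Rac, had 0.27, and -0.03 without saline replicate 2, which at 4.73 CPM was the lowest of the 8 libraries.

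For genes linked to neurodegeneration, 7 of 11 OCRs had a positive value (median 0.13, and 0.05 without saline replicate 2). They ranged from -0.51 at one of the OCRs of MAPT, which encodes tau, to 0.61 at LRRK2, a kinase linked to Parkinson's disease, where saline replicate 2 held 0.525 CPM and the other 7 libraries 2.62 to 8.76 CPM. In the test without that library these values were -0.11 at MAPT and 0.25 at LRRK2. Glial genes had 10 OCRs, 4 with a positive value (median -0.06), and 7 without saline replicate 2 (median 0.06). They ranged from -0.53 at SERINC5, a membrane protein of myelinating cells, to 0.10 at PTCH1, the hedgehog receptor, which was 0.25 without saline replicate 2. At SERINC5 the saline replicates held 50.1, 60.5, 15.2 and 9.64 CPM, the METH replicates 26.4, 36.3, 22.2 and 8.86 CPM, and the log2 fold change without saline replicate 2 was -0.09.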

How the data were processed

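The authors processed the reads with the AIAP pipeline at default parameters, called peaks per library, and merged the OCRs of all groups with mergeBed. Build rn6 and bedtools are named in the submitters' processing notes. No source names the counter or states how the transposase offset was handled. The deposited table holds raw counts per OCR. The deposited peak lists hold, per peak, a fold enrichment as a ratio, a score, and −log10 p and q values. All columns of per-library values were used or mapped to a library. The study's supplementary tables served only for gene names.

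The test was run with edgeR 4.0.16 under R 4.3.3 (upper-quartile normalization, trended dispersion, robust quasi-likelihood test) in 1 model of 29 libraries and 8 groups. filterByExpr kept 98237 of 98237 OCRs. The study also removed unwanted variation with RUVr, without stating the number of factors, so RUVr, rewritten here, is an alternative, as is DESeq2 1.42.0. Counts corrected by RUVr factors were tested with edgeR's likelihood ratio test and tagwise dispersions. log2 CPM used a prior count of 2. Single values per library were compared by two-sided exact permutation tests, adjusted by Benjamini-Hochberg within a family. Depth was 12.2 to 19.4 M counts in OCRs per library. The scripts were tested on simulated data.

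Named OCRs were the 6 in each direction with the lowest p among OCRs whose groups did not overlap, the 3 in each direction without saline replicate 2, the highest and lowest OCR of each gene list and any of it with an unadjusted p under 0.05, the OCRs of GABRB1, NETO1 and TIAM2, and 1 window in each direction. The result of 1 gene list is not reported here. The classes, lists and OCRs were chosen with earlier results of these data known. The interaction with name tag, the windows by number of OCRs, the shares without saline replicate 2 and the peaks outside the table were added after seeing the data. Sequences of OCRs and genomic features were not used here, for want of an rn6 genome in this work.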

Additional observations from a re-analysis of the deposited data

Results flagged for a closer look

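Among 126 groups of 4 libraries examined, 2 held a library far from the other 3 by Dixon's test, where about 1 in 20 is flagged by chance. METH replicate 2 held 7.17 CPM in the more accessible OCR chr1:145956796-145957672, where the other METH libraries held 4.40 to 4.84 CPM. METH replicate 1 held 3.10 CPM in chr3:168602670-168603046, where the others held 0.422 to 0.618 CPM, and the log2 fold change of 2.01 was 0.93 without it.

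In the share of counts of the level deciles named here, every METH library lay on one side of both saline libraries in name tag 1 and on the other side in name tag 2. This difference between the tags was not tested for the shares. METH minus saline was 0.28, 0.51, 0.56, 0.59, 0.63 and 0.67 percentage points in name tag 1 for deciles 1, 3, 4, 5, 6 and 7. In name tag 2 it was -0.21, -0.31, -0.32, -0.34, -0.36 and -0.37. In the highest decile it was -3.59 in name tag 1 and 2.35 in name tag 2. The shares of the deciles of a library add up to its whole count. A fall in the highest decile thus goes with a rise elsewhere, and these differences are not separate results.

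Peaks that overlap no OCR of the table made up 15.6% to 35.5% of the peaks of a library and fell into 98326 merged regions, of which 49209 came from 1 library. A peak in all 4 METH and no saline library was found in 38 of these regions, and a peak in all 4 saline and no METH library in 7. METH libraries had more peaks outside the table on average, 26143.5 against 22933.8 with saline. Saline replicate 2 had the fewest, 11724, and without it METH minus saline was -526.83 peaks. The counts of 38 and 7 were not repeated without that library.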

How the results depend on the processing

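No DAR was called under the other alternatives run, with 2 exceptions. These were 10 with 10 RUVr factors as covariates, and 1385 on counts corrected by these factors in the likelihood ratio test. The correction had taken out spread within groups, which that test did not allow for. OCRs at an unadjusted p under 0.05 numbered 806 of the 98237 tested. They numbered 16580 and 12466 with 10 and 5 RUVr factors as covariates, and 28161 on corrected counts with the likelihood ratio test. They numbered 1499 with DESeq2, 1289 with loess offsets, 495 with the CA libraries alone and 1636 with name tag as a covariate. Within name tags 1 and 2 they numbered 13103 and 1237. With single libraries left out they numbered 319 (without saline replicate 2) to 4756 (without saline replicate 4), with 3069 without saline replicate 3, 489 and 532 without saline replicate 1 and METH replicate 4, and 1393 without METH replicate 2. Of them, 43.05% were more accessible, against 18.95% with DESeq2, 23.82% with loess offsets, 67.57% and 70.66% with 10 and 5 RUVr factors, 69.68% with name tag as a covariate and 79.57% with the replicate block.

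The rule for pairing by number, a correlation above 0.1 in every pair, was not met: the deviations of same-numbered saline and METH libraries correlated with 0.048, 0.688, 0.443 and 0.573, and not every library was closest to its own number. With the replicate block, 2119 OCRs had an unadjusted p under 0.05 and none was a DAR, and in the exact sign-flip test by number the METH library lay on one side of the saline library in 4 of 4 pairs for the number of peaks and for the shares with 1 to 2, 3 to 5 and 10 or more neighbours (p = 0.125, the smallest it can give).

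The share of the peaks of a library by peak width is another measure than the share of counts by OCR width. METH minus saline in that measure was 1.20 percentage points for peaks under 400 bp and -0.0086 for those of 2000 bp or more. In the shares of counts, these classes had the opposite signs (-0.075 and 0.028). A class by neighbours holds other OCRs when the radius changes. For 3 to 5 neighbours the difference in the share of counts was -0.311 within 20 kb, and for 6 to 9 it was 0.278 within 100 kb. The end classes kept their signs. With no neighbour and with 10 or more, it was 0.432 and -0.106 within 20 kb, and 0.0496 and -0.814 within 100 kb. Within name tags 1 and 2 it was 0.085 and -0.029 for 2000 bp or more, 0.649 and 0.126 for 1 to 2 neighbours, 0.621 and 0.156 for 3 to 5, and -1.47 and -0.276 for 10 or more. With single libraries left out, it ranged from -0.156 to 0.018 under 400 bp, -0.822 to 1.09 from 400 to under 800 bp, -0.664 to 0.471 from 800 to under 1200 bp and -0.486 to 0.426 from 1200 to under 2000 bp. In deciles 1, 5 and 10 it ranged from -0.104 to 0.181, -0.19 to 0.40 and -2.43 to 1.43, and for 6 to 9 neighbours from -0.091 to 0.0079. For 1 to 2, 3 to 5 and 10 or more neighbours it ranged from 0.265 to 0.49, 0.327 to 0.464 and -1.17 to -0.58. Total counts ranged from -1.25 to 1.15 M and peak fold from -0.0902 to 0.280. The cause of these changes was not tested.

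Of the named OCRs, those of BDNF (-0.00054 to 0.628), ERBB4 (-0.545 to 0.107), PTCH1 (-0.024 to 0.252), TIAM2 (-0.028 to 0.541) and the second of GABRB1 (-0.0038 to 0.591) changed sign when a library was left out.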
